A study of Mus musculus with 8 samples.

Results

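The regions described here are the stretches enriched for 5-hydroxymethylcytosine (5hmC) that lie next to the centromere on the mouse autosomes. They were chosen by position alone: a region on chromosomes 1 to 19 whose start lies below 8 Mb in the mouse genome build mm9. There were 673 such proximal regions among the 21990 listed in hippocampus and 357 among the 11664 listed in left ventricle, against 21036 and 11152 regions on the rest of the autosomes. They lay on 18 of the 19 autosomes in each tissue. Chromosome 14 had none, since its first listed region started at 8647808 in hippocampus and at 8727143 in ventricle.

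The DNA came from C57BL/6 mice, 20 weeks after a sham exposure (0 Gy) or 1 Gy of protons. It was pooled over animals, precipitated for 5hmC and sequenced. Each of the 4 groups (sham hippocampus, irradiated hippocampus, sham left ventricle, irradiated left ventricle) had 2 pools described as biological replicates. The design text speaks of 5 mice per treatment group and does not say how many mice a pool holds, so the pool is the unit of replication. Age, sex and genotype beyond the strain were not given in the sources used here. The tissues are bulk, with every cell type of the dissected piece, so a change in cell makeup and a change of 5hmC within cells cannot be told apart.

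5hmC is made from 5-methylcytosine by the TET enzymes. It is abundant in neurons, where it marks the bodies of expressed genes and enhancers. Mouse chromosomes carry the centromere at one end, beside long arrays of satellite repeats packed as heterochromatin and heavily methylated. The assembled sequence begins beyond these arrays.

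The counts are raw reads per listed region. The totals over all listed regions were 266361 and 110699 in hippocampal sham pools 1 and 2, and 1912037 and 1628905 in irradiated pools 1 and 2. In ventricle they were 81794 and 49649 under sham and 86857 and 111035 after 1 Gy. Each irradiated pool was thus deeper than each sham pool of its tissue, by far more in hippocampus. Effects of dose and of depth cannot be told apart by these pools. The median proximal region held 12 and 3 reads in hippocampal sham pools 1 and 2, and 64 and 57 in irradiated pools 1 and 2. In ventricle it held 3 and 0 reads under sham and 7 and 3 after 1 Gy. The same medians for the other autosomal regions were 12, 3, 66 and 58 in hippocampus and 2, 0, 8 and 4 in ventricle. In sham ventricular pool 2, 182 of the 357 proximal regions stood at 0, where the depth allows up to 60.4 CPM, the unit of counts scaled to a common total. Hippocampal sham pool 1 and ventricular irradiated pool 1 stood apart from the rest: across the proximal regions, the Spearman correlation of sham pool 1 with sham pool 2 was -0.50 in hippocampus, and that of irradiated pool 1 with irradiated pool 2 was -0.33 in ventricle. Regions share libraries, so these correlations describe the libraries and carry no p. The dose differences in the share of counts are given with and without these pools.

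The proximal stretch was somewhat poorer in listed regions than the rest of the autosomes in both tissues. Counted from the first listed region of each chromosome to 8 Mb, it held 7.78 regions per Mb in hippocampus against 9.09 elsewhere, a ratio of 0.856. In ventricle it held 4.27 per Mb against 4.83, a ratio of 0.884. Each tissue has 1 list, so these densities carry no replicate error. With the bound at 5 Mb and the same way of counting, the ratio was 0.974 in hippocampus and 1.14 in ventricle. In 1 Mb bins over all 19 autosomes, however, the ventricular bins below 5 Mb held 4.11 and 4.42 regions per Mb, under the 4.83 elsewhere. The direction in ventricle at 5 Mb thus depended on whether each chromosome was counted from its own first listed region.

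**Figure D1:**
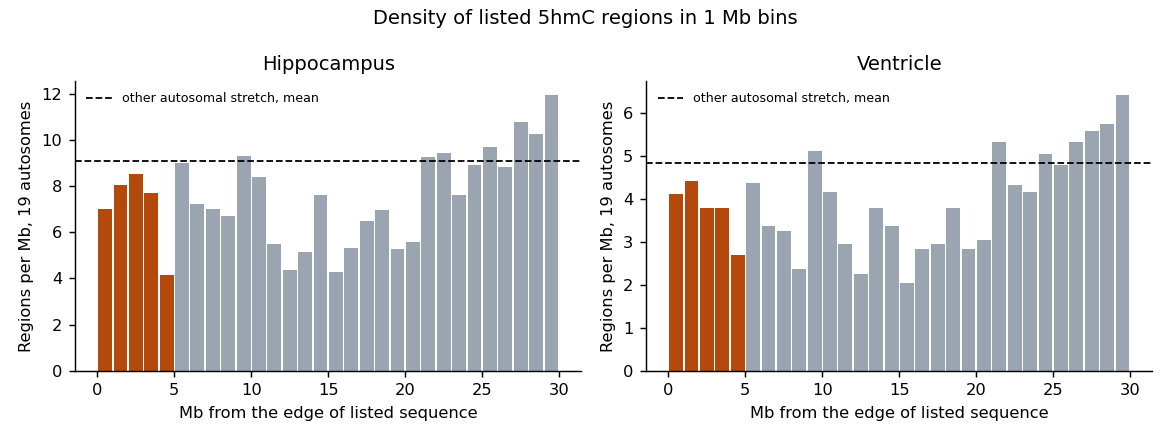
Listed 5hmC regions per Mb (y axis) over the 19 autosomes together, in 1 Mb bins by distance from the edge of listed sequence (x axis, Mb), with proximal bins in orange, the bins beyond them in grey and the mean of the other autosomal stretch as a dashed line. All 5 proximal bins lie below the dashed line in both tissues, and so do 14 of the next 15 bins. Of all 25 bins drawn beyond the proximal ones, 18 lie below and 7 above it in each tissue.

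The low density was not limited to the proximal stretch. In the plot of density by 1 Mb bin, all 5 proximal bins lay below the mean of the other autosomal stretch in both tissues. Of the 15 bins that followed, 14 also lay below it in each tissue, with a median of 6.68 regions per Mb in hippocampus and 3.26 in ventricle. Over the 25 bins that followed, 18 lay below it and 7 above it in each tissue. Of the proximal bins, the outermost, with starts from 7 to 8 Mb, was the emptiest. It held 79 hippocampal regions, between 146 in the bin before it and 171 in the bin after it. In ventricle it held 51, between 72 and 83. Within that bin chromosomes 7 and 14 had 0 regions in both tissues, and chromosome 19 had the most in hippocampus, 14.

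Single chromosomes differed widely in proximal density. Chromosome 19 was the densest in both tissues, with 16.7 proximal regions per Mb in hippocampus (82 regions) against 9.97 on the rest of it. In ventricle it had 9.38 (42 regions) against 4.81. Chromosome 11 had 14.998 per Mb against 11.6 in hippocampus and 7.40 against 6.03 in ventricle. Chromosome 17 had 14.01 against 10.3 and 7.92 against 5.40. At the other end in hippocampus, chromosome 1 had 2.09 per Mb against 7.94 (1.84 against 4.16 in ventricle). Chromosome 9 had 2.60 against 10.02 (2.60 against 6.07 in ventricle). In ventricle chromosome 3 was the lowest, at 1.27 against 3.77, and chromosomes 4, 5, 8 and 13 also lay below chromosome 9. The proximal stretch was denser than the rest of its own chromosome on 6 of 18 chromosomes in hippocampus and on 7 of 18 in ventricle. Chromosomes ranked alike in both tissues, with a Spearman correlation of proximal density of 0.756 over the 18 chromosomes. The rest of the same chromosomes gave 0.781. Within a tissue, proximal density followed that of the rest of the chromosome less closely (0.379 in hippocampus, 0.292 in ventricle).

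**Figure D2:**
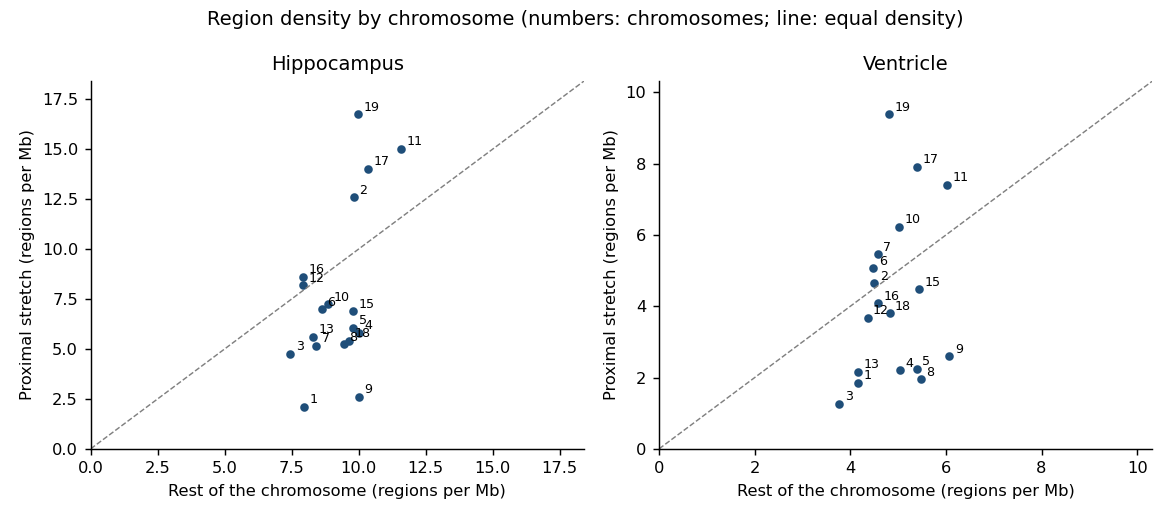
Proximal density (y axis, regions per Mb) against the density of the rest of the same chromosome (x axis, regions per Mb), 1 point for each of the 18 autosomes with proximal regions; the dashed line marks equal densities. Chromosomes 19, 11 and 17 lie above the line in both tissues, and chromosomes 1 and 9 far below it.

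A typical proximal region was as strong as a region elsewhere, while a few at the very edge were many times stronger. The median of the regions' mean CPM was 36.9 for proximal and 37.4 for other autosomal regions in hippocampus, a ratio of 0.987. In ventricle it was 65.5 against 64.1, a ratio of 1.02. The averages differed more, at 66.6 against 44.7 CPM in hippocampus and 139 against 83.5 CPM in ventricle. Of the 12 regions per tissue with a mean above 20 times that of the median region, called high-count here, 6 were proximal in each tissue. In hippocampus the threshold was 744 CPM, with the nearest regions at 703 and 1356 CPM, and in ventricle it was 1282 CPM, with the nearest at 1203 and 1354 CPM.

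The excess lay in regions with starts below 3.2 Mb, a limit chosen after the values had been seen. These edge regions number 34 on 10 chromosomes in hippocampus and 29 on 9 chromosomes in ventricle. In hippocampus their mean count was 4.39 and 12.9 times that of other autosomal regions without high counts in sham pools 1 and 2, and 24.4 and 21.2 times in irradiated pools 1 and 2. In ventricle it was 14.3 and 24.8 times in the sham pools and 3.80 and 11.4 times in the irradiated pools. So the mean count of edge regions stood above that of the others in all 8 libraries, least in sham hippocampal pool 1 and irradiated ventricular pool 1. Part of the edge regions carried this mean. Their quartiles of mean CPM were 39.9 and 487 in hippocampus, against a median of 37.4 for the others. In ventricle they were 63.0 and 1106, against 64.1.

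The mean count fell steeply with distance. In hippocampus the 24 regions starting below 3.1 Mb had 5.47, 16.7, 31.4 and 27.3 times the mean count of the others (sham pools 1 and 2, irradiated pools 1 and 2). The 10 regions from 3.1 to 3.2 Mb had 1.82, 3.78, 7.39 and 6.61 times. The 50 regions from 3.2 to 3.5 Mb had 0.985, 1.05, 0.985 and 0.947 times, which is the level of the other autosomes. In ventricle the ratio was between 0.671 and 1.33 over the pools and bins from 3.2 to 8 Mb. Beyond the edge, the remaining 639 proximal regions of hippocampus and 328 of ventricle had median means of 36.5 and 64.4 CPM, 0.978 and 1.00 times those of other autosomal regions.

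The strongest proximal regions formed a cluster of 5 on chromosome 9, from 2999461 to 3037379 in hippocampus and from 3000395 to 3037373 in ventricle. Together they held 1043 and 1424 reads under sham and 40022 and 29976 after 1 Gy in hippocampus. In ventricle they held 1615 and 1433 reads under sham and 446 and 1655 after 1 Gy. As a share of all autosomal counts this was 0.398% and 1.30% against 2.12% and 1.87% in hippocampus, and 2.01% and 2.96% against 0.522% and 1.52% in ventricle. Both irradiated pools thus lay above both sham pools in hippocampus and below both in ventricle.

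The 5 regions divided the cluster's reads in proportions that varied less than its level. The first, at 2999461 to 3003648 in hippocampus, took between 36.9% and 41.4% of the cluster's reads in the 4 hippocampal pools. The second, at 3015062, took 14.3% to 16.2%, the third, at 3024471, took 19.7% to 23.3%, the fourth, at 3030856, took 6.81% to 10.01%, and the fifth, at 3034828, took 14.7% to 14.9%. In ventricle the same 5 took 29.4% to 35.0%, 17.5% to 22.3%, 18.1% to 21.5%, 12.8% to 15.98% and 12.8% to 15.4%. The ranges of the first, the second and the fourth did not overlap between the tissues. The lists bound these regions differently. The first spans 4188 bp in hippocampus and 3255 bp in ventricle, and the fourth 2693 and 3915 bp. The second spans 4833 and 4832 bp. How far the bounds set these shares was not tested. The first was the largest in all 8 pools, with 427, 589, 14750 and 11066 reads in hippocampus and 548, 421, 156 and 537 in ventricle.

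The other high-count proximal region stood alone on chromosome 12 at 3108505 to 3111048, with the same coordinates in both tissues. It held 130 and 112 reads under sham and 4461 and 3458 after 1 Gy in hippocampus. In ventricle it held 136 and 104 against 33 and 142. Its share of autosomal counts was 0.0496% and 0.102% against 0.237% and 0.215% in hippocampus, and 0.169% and 0.215% against 0.0387% and 0.130% in ventricle.

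Chromosome 11 carried a longer run at its edge, below the high-count threshold. It had 10 regions over 98.2 kb in hippocampus (2999510 to 3097678) and 9 over 99.8 kb in ventricle (3000182 to 3100007). The run took 0.132% and 0.278% of autosomal counts under sham and 0.558% and 0.529% after 1 Gy in hippocampus. In ventricle it took 0.699% and 1.079% against 0.237% and 0.628%. As on chromosome 9, the groups did not overlap, in opposite directions. Of its hippocampal members, the strongest lay at 3058548 to 3066243, the widest proximal region of that tissue at 7696 bp, with 76, 55, 1902 and 1689 reads. The strongest in ventricle lay at 3031806 to 3037489 with 100, 98, 23 and 150 reads. All 5 of the next strongest ventricular regions after the high-count ones belonged to this run.

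Chromosome 4 had a lone strong region at 3016240 to 3018773 in hippocampus, with 25 and 34 reads under sham and 1554 and 1217 after 1 Gy. Its ventricular partner at 3016212 held 17, 33, 7 and 45. On chromosome 18 the region at 3004394 held 11, 15, 387 and 367 reads in hippocampus, and its partner at 3004411 held 17, 16, 1 and 38 in ventricle. Not every edge region was strong. On chromosome 10 at 3023796 to 3026339 the hippocampal pools held 15, 6, 29 and 35 reads, a mean of 36.8 CPM, close to the median proximal region. On chromosome 19 at 3099240 the counts were 30, 0, 12 and 19.

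**Figure D3:**
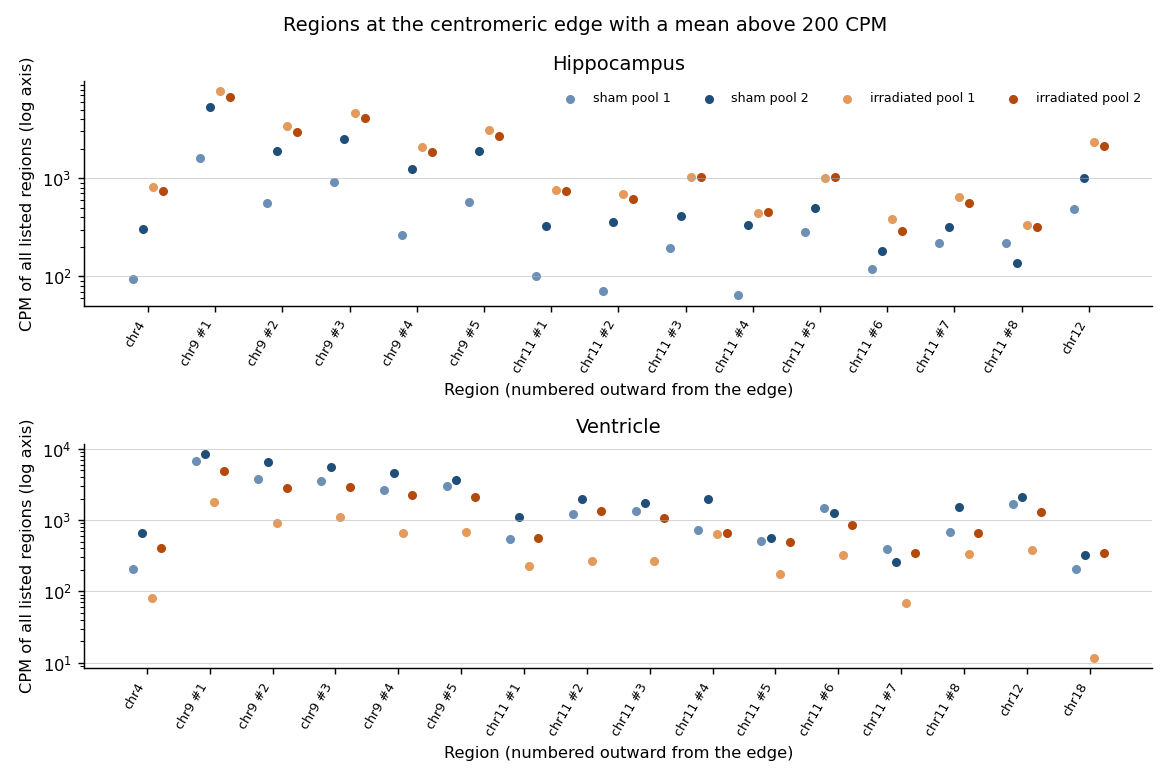
CPM of all listed regions (y axis, log scale) in each pool for the edge regions with a mean above 200 CPM, grouped by chromosome and numbered outward from the edge (x axis). In hippocampus sham pool 1 is the lowest in most regions and both irradiated pools lie together at the top; in ventricle irradiated pool 1 is the lowest in most regions.

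Edge regions also differed from the rest in width and spacing. In both tissues most regions have exactly 1 width, 2544 bp, which 78.0% of proximal and 78.2% of other regions had in hippocampus and 76.8% and 80.5% in ventricle. At the edge the share was 38.2% in hippocampus and 34.5% in ventricle. The gap to the region before it had a median of 5.29 kb at the edge, 53.8 kb over all proximal regions and 49.97 kb over the other autosomes in hippocampus. In ventricle these medians were 5.52, 92.5 and 89.6 kb. The first region of a chromosome has no gap, and edge regions all start below 3.2 Mb. The limit itself thus caps the gaps at the edge, and the contrast in spacing is not independent of it.

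The lists of both tissues met far more often at the edge. Of the 34 hippocampal edge regions, 21 (61.8%, 95% exact binomial interval 43.6% to 77.8%) overlapped a ventricular region by 1 bp or more. Of the 639 proximal regions beyond the edge, 29 (4.54%, interval 3.06% to 6.45%) did, and 6.08% of the other autosomal regions. Of the 29 ventricular edge regions, 20 (69.0%) met a hippocampal one, against 28 of 328 (8.54%) beyond the edge and 11.4% on the other autosomes. The intervals cover counting error in 1 list per tissue and treat neighbouring regions as independent. Edge regions lay closer together and were wider by median, at 2557 bp in hippocampus and 2735 bp in ventricle against 2544 bp elsewhere. How far this sets the overlap was not tested.

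Pools ranked the edge regions alike. Elsewhere only the irradiated hippocampal pools did so to a like degree. Across the 34 hippocampal edge regions, Spearman correlations between pools ran from 0.625 (sham pools 1 and 2) to 0.985 (irradiated pools 1 and 2). Across the proximal regions beyond the edge they ran from -0.590 (sham pools 1 and 2) to 0.704 (irradiated pools 1 and 2), and over the other autosomal regions from -0.530 to 0.710. In ventricle they ran from 0.713 to 0.9497 at the edge, from -0.483 to 0.106 beyond it and from -0.473 to 0.0697 over the other autosomes. The points of each correlation share libraries and depth, and strong regions have less counting error than weak ones.

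The first comparison with dose is the share of autosomal counts in all proximal regions, which does not depend on how the libraries are scaled. In hippocampus the sham pools had 3.54% and 4.33%, the irradiated pools 5.29% and 5.04%. The group means were 3.93% ± 0.561 and 5.16% ± 0.180 (SD, n = 2 pools each). In ventricle it was 5.35% and 6.70% against 3.63% and 4.62%, 6.02% ± 0.955 against 4.12% ± 0.697 (SD, n = 2). The difference, irradiated minus sham, was 1.23 percentage points in hippocampus and -1.90 in ventricle, without overlap between groups. With 2 pools against 2, the smallest p that an exact two-sided permutation test can give is 0.333, so no test is reported. The pool with the lowest share was sham pool 1 in hippocampus and irradiated pool 1 in ventricle. What part these pools have in the opposite directions was not tested. Without sham pool 1 the hippocampal difference was 0.833, and without irradiated pool 1 the ventricular one was -1.40. Without sham pool 2 it was -1.22.

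Within the proximal regions the edge carried these differences. Edge regions took 0.665% and 1.79% of all autosomal counts under sham and 3.09% and 2.77% after 1 Gy in hippocampus, a difference of 1.70 percentage points, or 1.14 without sham pool 1 and 2.27 without sham pool 2. In ventricle they took 2.97% and 4.43% under sham and 0.914% and 2.44% after 1 Gy, a difference of -2.02, or -1.26 without irradiated pool 1 and -1.30 without sham pool 2. The groups did not overlap in either tissue. With the high-count regions taken out of both the proximal and the autosomal counts, the proximal shares were 3.20% and 3.29% against 3.598% and 3.52% in hippocampus, a difference of 0.317, or 0.269 without sham pool 1. In ventricle they were 3.83% and 4.87% against 3.22% and 3.495%, a difference of -0.992, or -0.853 without irradiated pool 1, -0.472 without sham pool 2 and -1.51 without sham pool 1.

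Beyond the edge the hippocampal difference had the opposite sign, and the ventricular one depended on which counts the share was taken of. Of all autosomal counts, the regions beyond the edge held 2.87% and 2.54% under sham and 2.1997% and 2.26% after 1 Gy in hippocampus, a difference of -0.475 percentage points, or -0.307 without sham pool 1. In ventricle they held 2.37% and 2.27% under sham and 2.72% and 2.18% after 1 Gy, so the groups overlapped, with a difference of 0.126, or -0.142 without irradiated pool 1. When edge and other high-count regions were also taken out of the autosomal counts, the shares were 2.98% and 2.87% against 2.73% and 2.72% in hippocampus, a difference of -0.2003, or -0.144 without sham pool 1. In ventricle they were then 2.89% and 3.20% against 2.86% and 2.59%, a difference of -0.322, or -0.456 without irradiated pool 1, -0.170 without sham pool 2 and -0.188 without irradiated pool 2. Of these the nearest ventricular pools, sham pool 1 (interval 2.77% to 3.02%) and irradiated pool 1 (2.74% to 2.97%), differed by less than counting error.

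**Figure D4:**
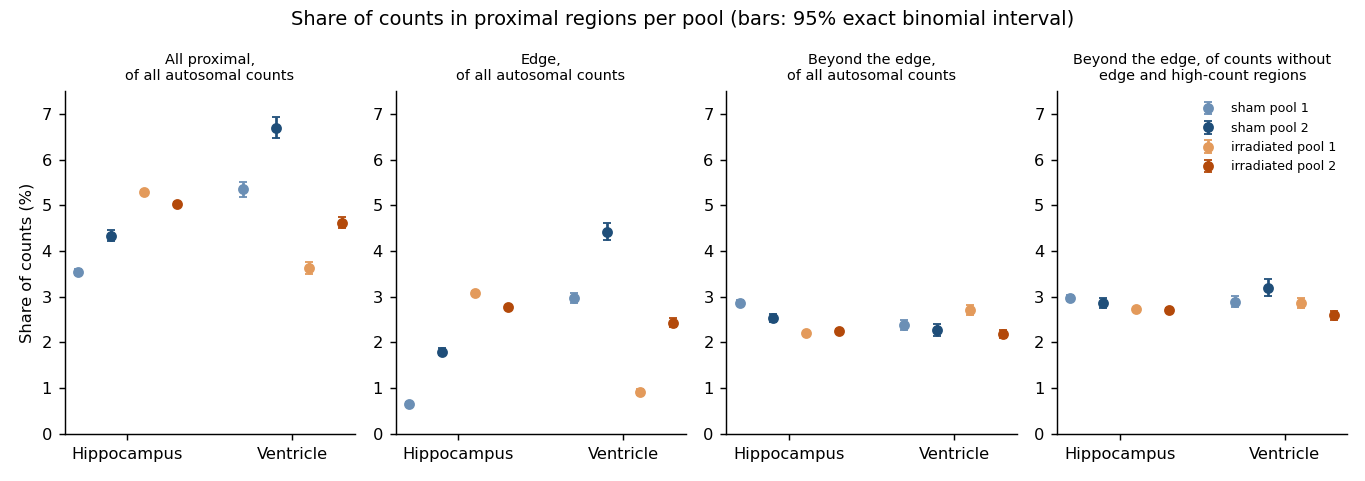
Share of counts (y axis, %) in each pool for all proximal regions, the edge regions and those beyond the edge, each of all autosomal counts, and in the last panel for those beyond the edge of autosomal counts without edge and other high-count regions, with 95% exact binomial intervals that cover counting error only. Edge shares run from 0.665% to 3.09% in hippocampus and from 0.914% to 4.43% in ventricle, with irradiated pools on opposite sides of sham pools in the tissues, while beyond the edge all 8 pools lie between 2.18% and 2.87% of all autosomal counts.

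No proximal region passed the test for 1 Gy against 0 Gy in either tissue. The test was edgeR's quasi-likelihood test over all regions of a tissue, at a false discovery rate (FDR, Benjamini-Hochberg) of 0.05, and 0% of all tested regions passed in hippocampus and 0% in ventricle. The filter on low counts kept 654 of the 673 hippocampal members and 92 of the 357 ventricular ones. An unadjusted p under 0.05 was found for 8 hippocampal members (1.22%, against 1.04% of all tested regions) and for 1 ventricular member (1.09%, against 2.53%). DESeq2 called 1 proximal region in hippocampus (against 0.00455% of all regions) and 0 in ventricle. Leaving out a sham hippocampal pool gave calls. Without sham pool 1, 62 proximal regions were higher (against 10.1% of all tested regions) and 36 lower (against 5.32%), which is 9.31% and 5.41% of the members tested. Without sham pool 2, 112 were higher (16.6%, against 15.4%) and 47 lower (6.98%, against 5.23%). Of the higher calls 18 were common to both settings, 15 of them at the edge, and of the lower calls 1. Both settings share the irradiated pools, and the lone sham pool is taken to vary as the irradiated pools do.

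Counted by pools that did not overlap after TMM scaling, proximal regions followed the rest of the list. In hippocampus 141 of 673 proximal regions had the irradiated pools above the sham pools (21.0%, against 22.1% of all regions) and 60 had them below (8.92%, against 8.42%). In ventricle this was 67 of 357 above (18.8%, against 23.7%) and 25 below (7.003%, against 5.8%). Scaled by total counts the hippocampal numbers were 86 above and 99 below, against 12.2% and 14.3% of all regions, so the balance of directions depended on the scaling. In ventricle they were 55 and 36 by total counts, against 20.1% and 8.27%.

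The edge regions leaned to opposite sides. In hippocampus 22 of 34 lay above (against 22.1% of all regions) and 2 below (against 8.42%) without overlap after TMM scaling. In ventricle 4 of 29 lay above (against 23.7%) and 9 below (against 5.8%). By total counts these were 20 above and 3 below in hippocampus, against 12.2% and 14.3% of all regions, and 2 above and 11 below in ventricle, against 20.1% and 8.27%. The 33 edge regions tested in hippocampus had a median log2 fold change of 1.49, against 0.11 over all tested regions and 0.03 for proximal regions beyond the edge. The 19 tested in ventricle had a median of -0.53, against 0.20 and 0.25. Relative to the median of all tested regions, the hippocampal edge stood at 1.38 under TMM, 1.35 with DESeq2-type size factors and 1.42 with total counts, but at -0.07 with loess offsets, which remove any trend of the fold change with the level. In ventricle it stood at -0.72, -0.78 and -0.78, and at -0.17 with loess offsets. The scaling itself moved the median of all tested regions, from 0.11 under TMM to -0.27 with total counts in hippocampus and from 0.20 to 0.42 in ventricle. Since the edge was chosen after these values had been seen, they are a description.

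The 6 high-count regions went the same way within each tissue, higher in hippocampus and lower in ventricle, under TMM, DESeq2-type size factors and total counts. In hippocampal libraries thinned to equal totals the 6 were still higher, but by less. Their log2 fold changes were then 0.68 to 1.01, against 1.37 to 1.89 at full depth. The thinned fit tested 521 regions. On chromosome 9 the first region stood at 3203 CPM ± 2619 in sham and 8271 CPM ± 978 in irradiated hippocampal pools (SD, n = 2, TMM-scaled), a log2 fold change of 1.37 (SE 1.41, edgeR FDR 1.00). In ventricle it stood at 15626 CPM ± 1147 against 9556 CPM ± 4002, a log2 fold change of -0.71 (SE 0.63, edgeR FDR 1.00). The region on chromosome 12 stood at 686 CPM ± 389 against 2539 CPM ± 242 in hippocampus, 1.89 on the log2 scale (SE 1.00, edgeR FDR 1.00), and at 3870 CPM ± 297 against 2349 CPM ± 1310 in ventricle, -0.71 (SE 0.69, edgeR FDR 1.00). Over the 6, the median log2 fold change was 1.67 in hippocampus and -0.75 in ventricle. With loess offsets these medians were -0.30 and -0.12, so the hippocampal sign turned. The 6 rank between 4 and 10 by mean CPM in hippocampus. At that end the loess curve rests partly on these regions themselves, so the turn cannot decide their direction. In hippocampus none of the 6 passed with all pools, but all 6 passed, higher after 1 Gy, when 1 sham pool was left out. Without sham pool 1 their median was 0.94 (0.68 to 1.37, edgeR FDR 0.000586 to 0.0294), and without sham pool 2 it was 2.77 (2.64 to 3.34, edgeR FDR 6.02e-18 to 6.12e-13). These calls share the irradiated pools and set them against a lone sham pool. In ventricle none passed in any of these settings, and the median ran from -1.80 without irradiated pool 2 to -0.52 without irradiated pool 1.

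The hippocampal members with the smallest p among higher values lay outside the edge and were weak. The region on chromosome 11 at 5758525 to 5761211 held 4 and 2 reads under sham and 120 and 91 after 1 Gy, a mean of 14.9 CPM ± 3.19 under sham and 67.6 CPM ± 7.49 after 1 Gy (SD, n = 2). Its log2 fold change was 2.23 (SE 0.81, edgeR FDR 1.00). On chromosome 12 at 3817790 to 3820663 the reads were 5, 2, 110 and 97 (log2 fold change 2.02, SE 0.78), and on chromosome 2 at 6278802 to 6281345 they were 6, 1, 88 and 99 (1.97, SE 0.79). In all 3 the groups did not overlap, and the differences rest on 7 or fewer sham reads.

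The hippocampal members with the smallest p among lower values also lay outside the edge. On chromosome 8 at 5134701 to 5137244 the reads were 19 and 9 against 12 and 10, a log2 fold change of -3.23 (SE 0.80, edgeR FDR 1.00), and this is the region that DESeq2 called (FDR 0.0207). On chromosome 15 at 6793403 to 6795946 they were 18 and 10 against 37 and 29 (-1.71, SE 0.69), and on chromosome 3 at 6950334 to 6952877 they were 18 and 6 against 24 and 17 (-2.04, SE 0.83). Scaled to depth, the irradiated pools lay below the sham pools in all 3. On chromosome 3, for example, the values were 54.2 CPM ± 3.85 in sham and 13.1 CPM ± 2.08 in irradiated pools (SD, n = 2).

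The ventricular regions with the smallest p among higher values had at most 24 reads in any pool. The region on chromosome 2 at 3245756 to 3248299, just beyond the edge, held 0 and 0 reads under sham and 12 and 17 after 1 Gy. Setting each sham library to the floor of 3 counts, it was 4.65-fold higher (TMM) or 2.9996-fold higher (total counts). These ratios leave out the counting error of the 12 and 17 reads. The filter on low counts kept this region only through its irradiated pools, and it did not pass the test. The region on chromosome 10 at 6490693 had 0, 6, 24 and 0 reads, so its groups overlapped. On chromosome 2 at 4411835 the reads were 13, 5, 16 and 24 (log2 fold change 1.12, SE 1.33).

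The ventricular region on chromosome 9 at 6593873 to 6596506 was the proximal region with an unadjusted p under 0.05 (edgeR FDR 1.00). It held 16 and 18 reads under sham and 0 and 0 after 1 Gy. With each irradiated library set to the floor of 3 counts, it was 5.61-fold lower (TMM) or 9.07-fold lower (total counts). These ratios leave out the counting error of the sham reads. On chromosome 10 at 7729743 to 7732286 the reads were 25 and 7 against 0 and 1, a 34.5-fold ratio of summed counts under TMM with a counting interval of 5.76 to 1404. On chromosome 13 at 6635110 to 6638912 they were 32 and 11 against 2 and 0, a 23.2-fold ratio with an interval of 6.04 to 197. None of these regions passed, and the filter on low counts kept them through the group in which they are high.

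Regions listed in both tissues allow the dose effects to be compared directly. Of 733 pairs of regions that each cover 50% or more of the other, 33 were proximal, 19 of them at the edge, and 29 of the 33 entered a test of 600 pairs. No proximal pair passed for a dose effect that differed between tissues in edgeR (0% of all tested pairs passed) or DESeq2. An unadjusted p under 0.05 was found for 9 proximal pairs, against 8.83% of all tested pairs, and 8 of these 9 were edge pairs. The median difference of the log2 dose effects, hippocampus minus ventricle, was 1.30 over the 29 proximal pairs and -0.66 over all pairs. In 9 proximal pairs the irradiated pools lay above the sham pools in hippocampus and below them in ventricle without overlap, against 5.87% of all 733 pairs, and in 0 the reverse, against 0.955%. The 9 were the 5 of the chromosome 9 cluster, the region on chromosome 12 and 3 of the chromosome 11 run.

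The smallest p of a difference between tissues belonged to the second region of the chromosome 9 cluster, at 3015062 to 3019894. Its reads were 149, 208, 6450 and 4862 in hippocampus and 307, 320, 78 and 310 in ventricle, and the difference of the log2 dose effects was 2.21 (SE 0.93, edgeR FDR 0.495). The fourth region of the cluster, at 3030856, with 71, 137, 3972 and 3002 reads against 219, 229, 57 and 246, had a difference of 2.13 (SE 0.93, edgeR FDR 0.495). On chromosome 11 the region at 3041430 to 3047327 held 52, 46, 1987 and 1662 reads, and its partner at 3040390 to 3047729 held 110, 87, 23 and 118. The difference there was 2.34 (SE 0.99, edgeR FDR 0.495).

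Levels of proximal regions were not shown to differ between tissues. No proximal pair passed for hippocampus against ventricle in edgeR (0% of all tested pairs passed) or DESeq2, and 4 had an unadjusted p under 0.05, against 5% of all tested pairs. Every hippocampal library lay above every ventricular one in 0 of the 33 proximal pairs (0.409% of all pairs), and the reverse held in 0. The smallest p belonged to the region on chromosome 4 at 3016240, where the log2 difference was 1.46 (SE 0.57, edgeR FDR 0.843). With total counts in place of TMM, the chromosome 11 pair at 3054347 passed, lower in hippocampus by a log2 difference of -1.29 (edgeR FDR 0.0460). Its reads were 17, 37, 851 and 741 in hippocampus and 59, 97, 56 and 72 in ventricle.

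The 2 regions nearest the 8 Mb bound on each side are given as examples and are too few to compare the sides. Their mean CPM in hippocampus was 33.1 and 46.2 inside against 22.5 and 23.6 outside. In ventricle it was 31.8 and 72.6 inside against 71.4 and 68.9 outside. Just inside the bound, the hippocampal region on chromosome 8 at 7984431 held 20, 0, 50 and 51 reads, and that on chromosome 10 at 7956315 held 12, 4, 88 and 94. Just outside, those on chromosome 3 at 8004012 and 8020543 held 21, 0, 5 and 14 and 12, 0, 53 and 35. In ventricle the regions inside, on chromosome 5 at 7993048 and chromosome 10 at 7990077, held 1, 0, 10 and 0 and 1, 8, 0 and 13. Those outside, on chromosome 10 at 8024943 and chromosome 2 at 8039022, held 16, 0, 0 and 10 and 15, 0, 8 and 0.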

How the data were processed

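5hmC DIP-seq libraries of 8 pools were compared, grouped by tissue and dose from their titles. The deposited files hold raw counts of reads per region of a merged list, per the file contents, and the list is identical in the 4 files of a tissue. Build mm9 and the tools Bowtie 1.0.0, CASAVA 1.8.2 and DESeq2 appear in the submitters' processing notes without their roles. Not given in the sources used here: the peak caller, merging rule, duplicate handling and input. Printed starts are the file's plus 1, as for BED intervals. Gene annotation and sequence of mm9 were not used here.

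The window, the high-count threshold and the regions compared were chosen with earlier results of these data known. Named were every proximal high-count region, the next 5 by mean CPM, the 3 smallest p per direction, the 3 smallest interaction p, and the 2 regions on each side of the bound. Other edge regions were named after their values had been seen.

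Each tissue was fitted with edgeR 4.0.16 (R 4.3.3) over all its regions: TMM, filterByExpr, quasi-likelihood F-test, FDR 0.05. Pairs were fitted with a mean per group. Group CPM of named regions is TMM-scaled, and other CPM relates to total counts. The fits were also run on simulated counts, with a spread between pools up to about that of the hippocampal fit. The ventricular spread was larger, so the simulation does not cover it. Shares have 95% exact binomial (Clopper-Pearson) intervals. A count of 0 allows up to 3 counts, between 1.57 and 60.4 CPM. Intervals and floors cover counting error only. Alternatives were DESeq2 1.42.0, other scalings and filters, other bounds, each library omitted, a replicate block and, added after seeing the data, thinned libraries and the edge left out. The p-values measure the spread between pools.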

Additional observations from a re-analysis of the deposited data

Results flagged for a closer look

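The dose difference in the share of autosomal counts in proximal regions went in opposite directions in the tissues: every irradiated pool lay above every sham pool in hippocampus and below every sham pool in ventricle. The hippocampal difference minus the ventricular one was 3.13 percentage points over all proximal regions. With high-count regions taken out of both the proximal and the autosomal counts it was 1.31 percentage points. For the edge regions, as a share of themselves and the other autosomal regions without high counts, it was 5.07. The difference between the tissues was not tested, and no group has more than 2 pools.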

How the results depend on the processing

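Leaving out each library changed the number of proximal hippocampal calls from 0 to between 0 and 159, and DESeq2 gave 1; the ventricular and interaction calls were 0 in each setting run, and the tissue calls 0 except 1 with total counts. Hippocampal counts without overlap were 86 higher and 99 lower with total counts. With a library left out the share difference lay between 0.833 and 1.63 percentage points (hippocampus) and between -2.57 and -1.22 (ventricle). It was 0.317 and -0.992 without high-count regions, -0.440 and 0.0768 with only the edge left out, and -0.200 and -0.322 with the edge and the other high-count regions left out.

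The median log2 fold change of proximal minus other regions was -0.06 in hippocampus. In thinned libraries it was 0.59, but over 24 tested proximal regions instead of 654. It was -0.076 with DESeq2, -0.074 without high-count regions and -0.049 with the replicate block. At 5 Mb it was -0.020, and with a library left out between -0.071 and -0.048. In ventricle it was -0.32, and -0.14 with loess offsets. With a filter of 20 counts in 2 libraries it was 0.013, over 16 tested proximal regions instead of 92. At 5 Mb it was -0.50, and with a library left out between -1.51 (without sham pool 1) and -0.33. The density ratio was 0.487 in both tissues counted from position 0, 0.974 and 1.14 at 5 Mb, and 0.779 in both from the lowest autosomal start. Hippocampal regions meeting a ventricular one went from 50 to 33 with a reciprocal overlap of 50% and to 29 without the edge. Where a value moved, the cause was not tested.

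Single regions that turned with loess offsets were, in hippocampus, the chromosome 9 cluster (-0.57, -0.24, -0.37, -0.049 and -0.39), chromosome 12 at 3108505 (-0.23) and chromosome 11 at 3058548 (-0.37), and in ventricle chromosome 9 at 3000395 (0.048) and 3024012 (0.12) and chromosome 11 at 3031806 (0.019), 3092259 (0.18) and 3054581 (0.63). With the filter of 20 counts chromosome 11 at 3092259 was 0.16 and at 3054581 was 0.54. The latter was 0.052 with DESeq2-type size factors, 0.36 in thinned libraries and between -1.30 and 0.0083 with a library left out. Hippocampal chromosome 8 at 7984431 was 0.50 with the replicate block and between -0.92 and 8.14 with a library left out. Replicate numbers do not pair the pools (correlation of same-numbered deviations -0.01 in hippocampus and -0.12 in ventricle). The replicate block, straight or crossed in ventricle, left the calls at 0. The ventricular pools, with a median of 0 to 7 reads per proximal region, left most members untested: 92 of 357 passed the filter on low counts.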
